A study of Mus musculus with 7 samples.

Results

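The genes Mbp, Mog, Mag, Mobp, Cnp, Cldn11, Mal, Opalin and Myrf encode myelin proteins, surface molecules and a transcription factor of mature oligodendrocytes. They were taken by symbol from a table of mouse brain RNA values, and the rule used no measured value. All 9 symbols matched 1 row each among the 48526 rows of the table. All 9 were also among the 17896 genes with a mean value of 3 or more, which were tested. The table holds 7 libraries of tissue labelled brain, from mice aged 24 months, 4 labelled on and 3 labelled off. By the titles both groups carry the V1S and SV2 constructs of a protein complementation model, and by the phenotype label both are Venus animals. The phenotype label gives glucose for the on libraries and Dox, taken here as doxycycline, for the off libraries, so constructs and drug change together and cannot be told apart. The sources used here give neither the promoter that drives the constructs nor the strain, the sex or the brain region. Nothing in the labels ties each library to its own animal. The p-values therefore reflect the spread among these libraries alone, which may be technical.

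Oligodendrocytes wrap axons in myelin, a spiral of their own plasma membrane that speeds conduction. In compact myelin the cytoplasmic faces of the membrane are held together by basic proteins, while other proteins sit at the innermost turn facing the axon, at the outer surface, or in the tight junctions between turns. MYRF is a transcription factor that is made as a membrane-bound protein, cuts itself, and turns on myelin genes together with the factor SOX10. In brain tissue these transcripts come almost entirely from oligodendrocytes and are concentrated in white matter. In bulk RNA, fewer oligodendrocytes and less myelin RNA per cell cannot be told apart.

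The stretches upstream of 4 of these genes are shown first. Of these, Mag, Mog and Cnp belong to the myelin programme that MYRF controls. Whether MYRF bears on the values of these genes in the libraries was not tested. Windows of 300 bases ran from 250 before to 50 after the start site in RefSeq (GRCm38.p6). They were used for 7 of the 9 genes, and for Mag at 3 start sites. No window of Mbp or Myrf was used, so the member counts below leave out both genes. Each window was searched on both strands for the MYRF motif letters CTGGCAC and CTGGTAC, the SOX letters ACAAAG and ACAATG, and the TATA letters TATAAA, none of which overlap another in these windows. The stretches below run to the base before the outermost annotated start, 5′ to 3′ on the gene's strand, with matches in capitals. They are Mog at chr17:37023399-37023648 (minus strand), Mag at chr7:30914923-30915172 (minus strand), Cnp at chr11:100574689-100574903 (plus strand) and Mal at chr2:127656696-127656945 (minus strand). The first 3 hold a MYRF match, on the opposite strand in Mog, and Mal is shown as a stretch with no match.
Mog: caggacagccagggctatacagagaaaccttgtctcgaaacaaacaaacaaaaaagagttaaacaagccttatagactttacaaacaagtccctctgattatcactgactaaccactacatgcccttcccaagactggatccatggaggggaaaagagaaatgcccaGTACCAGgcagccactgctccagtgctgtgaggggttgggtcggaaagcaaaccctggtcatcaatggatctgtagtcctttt
Mag: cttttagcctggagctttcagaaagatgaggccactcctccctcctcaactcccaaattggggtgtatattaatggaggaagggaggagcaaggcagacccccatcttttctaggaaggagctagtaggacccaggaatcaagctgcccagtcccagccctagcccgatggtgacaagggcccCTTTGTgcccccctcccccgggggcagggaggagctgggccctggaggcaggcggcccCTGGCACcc
Cnp: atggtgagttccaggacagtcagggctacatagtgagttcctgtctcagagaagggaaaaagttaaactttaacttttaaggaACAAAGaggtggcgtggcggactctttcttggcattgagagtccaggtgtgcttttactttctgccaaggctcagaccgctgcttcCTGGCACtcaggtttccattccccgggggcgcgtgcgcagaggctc
Mal: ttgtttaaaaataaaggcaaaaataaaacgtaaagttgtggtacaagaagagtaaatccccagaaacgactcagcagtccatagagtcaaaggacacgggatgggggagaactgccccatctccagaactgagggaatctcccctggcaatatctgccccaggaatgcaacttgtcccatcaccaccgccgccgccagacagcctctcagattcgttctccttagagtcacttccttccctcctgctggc
A MYRF match lay 83 to 77 bases before the start of Mog, and 81 to 75 bases before the RefSeq start of Cnp. In Mag it lay 9 to 3 bases before the outermost start, and the same bases are 68 to 62 before the next one. A further match was found in Opalin, after its start. In all, 5 of the 9 member windows held 1 of the 2 MYRF forms, against 7.1% of all 32851 windows. Those 5 windows belong to 4 of the 7 genes, since overlapping windows of Mag hold the same match. ACAAAG was found in 5 of the 9 member windows, against 18.7% of all windows. Those windows belong to 4 of the 7 genes, Mag, Mobp, Cnp and Opalin, again with the same match in overlapping windows of Mag. Mobp held ACAAAG 6 times. ACAATG and TATAAA were found in none of the member windows, against 12.6% and 13.6% of all windows. These counts describe letters and not binding.

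The libraries of the on group were not alike, which bears on every comparison. The leading principal component took 47.7% of the variance. It placed on replicates 2 to 4 between 7.19 and 9.15 and the off libraries between -8.64 and -3.56, with on replicate 1 among the latter at -4.10. Spearman's rho between a gene's deviation in a library and its transcript length, over 17831 genes, was 0.274 to 0.291 in on replicates 2 to 4, -0.316 to -0.233 in off, and -0.0592 in on replicate 1. Of 17896 genes tested with limma, 466 passed an adjusted p of 0.05. That count was 2917 without on replicate 1. It was 175, 57 and 85 without on replicates 2, 3 and 4, and 311, 43 and 74 without off replicates 1, 2 and 3.

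The 9 genes differed widely in abundance. Values are regularized logarithms (rlog), a log2 scale of scaled counts, and levels between genes are compared here as the rlog value minus log2 of the summed exon length in kb. On that scale Mbp, the basic protein that joins the cytoplasmic faces of compact myelin, was highest at 14.02 and ranked 22 of 17831 genes. Mobp, another small basic protein of compact myelin, followed at 12.80. Cnp, a cyclic nucleotide phosphodiesterase of non-compact myelin, stood at 11.92 and Mal, a membrane proteolipid of lipid rafts, at 11.82. Their gap of 0.09 was smaller than the sum of their standard deviations (SD) over the 7 libraries, 0.21, so these neighbours were not separated. Cldn11, the claudin of myelin tight junctions, lay at 11.40, Mag, the adhesion molecule that faces the axon, at 11.14 and Mog, an immunoglobulin-like protein of the outermost surface, at 10.65. A step of 2.14 led down to Myrf at 8.52. Opalin, a transmembrane glycoprotein of oligodendrocytes, was lowest at 8.01, in the middle range of the transcriptome with 64.0% of genes below it. From Mbp to Opalin the span was 64.5-fold. With the longest transcript as the length, Mag moved from the sixth place to the fourth, ahead of Mal and Cldn11, and the other places were kept in order. The span was then 107.9-fold, with Opalin at 8.09, and the step from Mog to Myrf was 1.54, beside 1.62 from Mobp to Cnp.

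**Figure D1:**
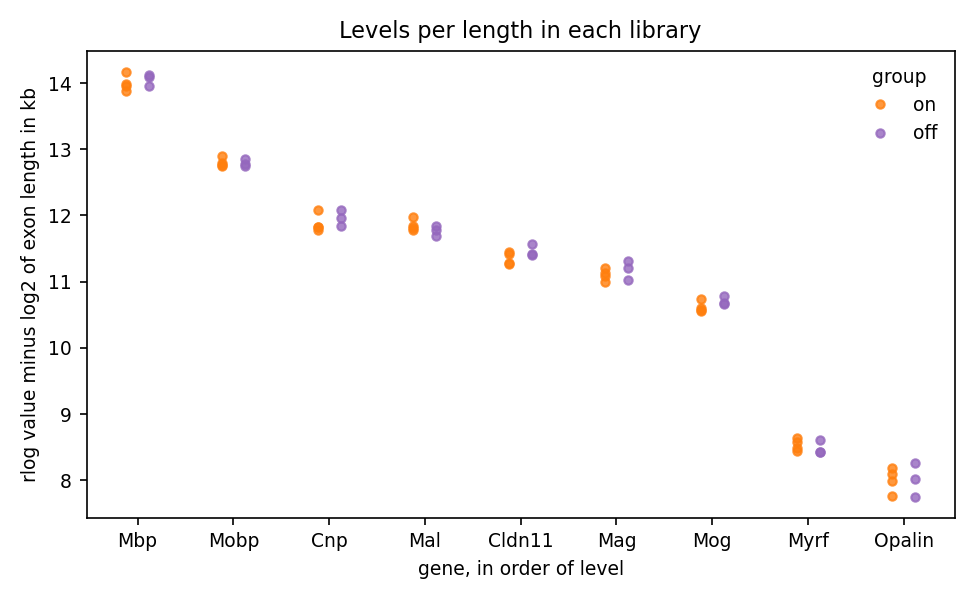
Level of each gene in every library, as the rlog value minus log2 of the summed exon length in kb (y axis, log2 units), for on (orange, 4 libraries) and off (purple, 3 libraries). Mbp lies at about 14.02 and Opalin at 8.01, and on and off points overlap for every gene.

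The comparison of on with off asks whether myelin transcripts differ with the state of the constructs. None of the 9 genes passed the threshold in limma (0 of 9, with 0 also at an unadjusted p under 0.05), against 2.6% of all genes tested at the adjusted threshold (0.816% higher and 1.79% lower in on) and 20.7% at the unadjusted one. On and off libraries overlapped for all 9, while they did not overlap for 15.2% of all genes. The 9 differences ran from -0.11 to 0.08 with a median of -0.05, and 6 were negative, against a median of 0.00 and a share of 48.5% negative over all genes tested. The 95% intervals reached no further than a fall of 14.9% or a rise of 16.7% for any gene, both for Opalin.

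Mbp lies on chromosome 18 (GRCm38, 82475146 to 82585637, plus strand). Its rlog values were 17.25, 17.07, 17.04 and 16.96 in on replicates 1 to 4 and 17.03, 17.17 and 17.20 in off replicates 1 to 3. On replicate 1 was the highest library and on replicate 4 the lowest, so both ends of the range lay within on. The difference was -0.05 ± 0.07 (SE, limma adjusted p = 0.698). The counts behind this value pool 16 annotated transcripts of the locus, which are not told apart at the level of genes.

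Mobp (chromosome 9, 120149707 to 120181484, plus strand) varied least of the 9. It measured 15.67, 15.57, 15.53 and 15.52 in on and 15.55, 15.53 and 15.63 in off, an SD of 0.06 over the 7 libraries, and 38.9% of tested genes varied less. The difference was 0.00 ± 0.05 (SE, limma adjusted p = 0.982), with a 95% interval from -0.10 to 0.11. Its exons share 79 bases with a processed transcript on the same strand, Gm38642.

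Cnp (chromosome 11, 100574904 to 100591729, plus strand) measured 13.95, 13.69, 13.70 and 13.64 in on and 13.71, 13.83 and 13.94 in off. On replicate 1 and off replicate 3 were nearly level at the top, and the other on libraries were below all off libraries. The difference was -0.08 ± 0.07 (SE, limma adjusted p = 0.522). Exons of Dnajc7 on the opposite strand overlap 154 bases of Cnp, and no source used here says whether strand was used in counting, so that stretch is uncertain.

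Mag (chromosome 7, 30899176 to 30914873, minus strand) measured 13.23, 13.11, 13.16 and 13.02 in on and 13.04, 13.23 and 13.33 in off. Off replicate 3 was highest, and off replicate 1 was nearly as low as the lowest on library. Its difference was -0.07 ± 0.06 (SE, limma adjusted p = 0.559), and it turned positive, at 0.02, once trends with GC content and transcript length were removed.

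Mog (chromosome 17, 37010743 to 37023398, minus strand) measured 11.51, 11.37, 11.34 and 11.32 in on and 11.44, 11.45 and 11.55 in off. The 3 on libraries other than replicate 1 were below every off library. The difference over all libraries was -0.09 ± 0.05 (SE, limma adjusted p = 0.285), or -0.02 after the GC and length correction.

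Cldn11 (chromosome 3, 31149920 to 31164324, plus strand) gave the most negative difference of the 9. It measured 12.36, 12.33, 12.19 and 12.17 in on and 12.33, 12.31 and 12.48 in off, so on replicates 1 and 2 fell among the off libraries. The difference was -0.11 ± 0.05 (SE, limma adjusted p = 0.261), with a 95% interval from -0.23 to 0.01, and it was -0.04 after the GC and length correction.

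Mal (chromosome 2, 127633226 to 127656695, minus strand) gave the most positive difference. It measured 13.45, 13.26, 13.29 and 13.32 in on and 13.26, 13.17 and 13.32 in off, with off replicate 2 the lowest library, where Mbp, Cnp and Mag lay above their means. The difference was 0.08 ± 0.05 (SE, limma adjusted p = 0.378), with a 95% interval from -0.03 to 0.19. After the GC and length correction it was larger, at 0.11 (limma adjusted p = 0.248).

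Opalin (chromosome 19, 41061710 to 41077113, minus strand) was the most variable. It measured 9.74, 9.32, 9.66 and 9.55 in on and 9.31, 9.58 and 9.82 in off, a range of 0.51 with an SD of 0.20, and 98.9% of tested genes varied less. On replicate 2 and off replicate 1 were low together. The difference was -0.0050 ± 0.11 (SE, limma adjusted p = 0.985), and its sign changed with the scaling (0.0015 with median centring).

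Myrf (chromosome 19, 10208272 to 10240748, minus strand) measured 11.73, 11.59, 11.68 and 11.54 in on and 11.53, 11.52 and 11.70 in off. Its difference was 0.05 ± 0.05 (SE, limma adjusted p = 0.642), so the transcript of this regulator was not separated between the groups. Relative to the mean of the 9 genes in the same library, Myrf lay between -0.0007 and 0.09 in on. In off it lay between -0.09 and -0.01. That mean includes Myrf itself, and the closest values were -0.0007 in on replicate 1 and -0.01 in off replicate 1. For each other gene of the 9 these relative values overlapped between on and off. The share over all genes was not worked out for such relative values. For values not taken relative to this mean, on and off did not overlap for 15.2% of all genes. No test was made, and the Myrf pattern is not read as a result.

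**Figure D2:**
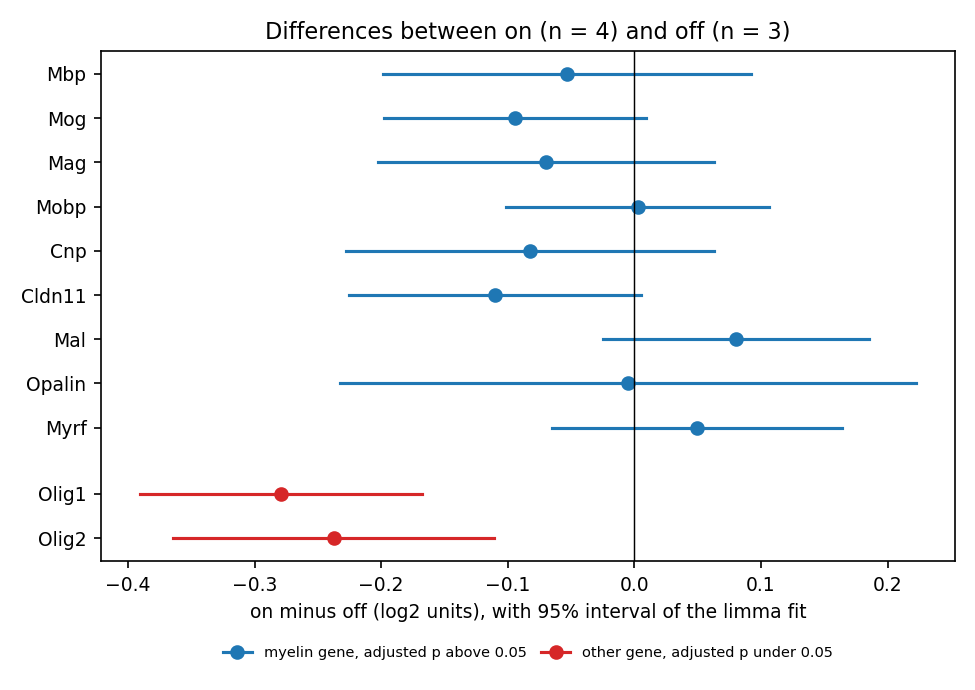
Difference on minus off (x axis, log2 units) with the 95% interval of the limma fit for the 9 myelin genes (blue) and the lineage factors Olig1 and Olig2, which passed the threshold (red). All 9 blue intervals include 0, while Olig1 and Olig2 lie at -0.28 and -0.24.

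The limma result for Mog and Cnp turned on a single library. Without on replicate 1, the library that lay among the off libraries on the first component, Mog fell by 0.14 (adjusted p = 0.0299) and Cnp fell by 0.15 (adjusted p = 0.049), and the other 7 genes did not pass. That is 2 of 9 genes, or 22.2%, beside 16.3% of all genes called in the same fit. With the GC and length correction and without on replicate 1, neither passed: Mog stood at -0.05 (limma adjusted p = 0.475) and Cnp at -0.08 (limma adjusted p = 0.222), and 0 of 9 genes were called, beside 9.13% of all genes. Leaving out off replicate 3 as well, a choice made after seeing the data, gave 0 of 9 called in limma, with differences from -0.10 to 0.08, beside 12.6% of all genes.

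These genes moved together between libraries within each group. The mean of the 9 deviations, each gene taken from its own mean over the 7 libraries, was 0.12 in on replicate 1 and 0.13 in off replicate 3. In both libraries all 9 genes were above their means. In the other libraries the mean deviation was -0.06, -0.03 and -0.09 in on replicates 2 to 4 and -0.07 and -0.0037 in off replicates 1 and 2. On replicate 1 was among the 2 highest libraries for all 9 genes and off replicate 3 for 8 of 9; the exception was Mal, for which on replicate 4 came second. On replicate 4 was the lowest library for 6 of the 9. The mean deviation was -0.01 ± 0.09 (SD, n = 4) in on and 0.02 ± 0.10 (SD, n = 3) in off, so the gap between groups, -0.03, was under either SD. Within on the range was 0.20 and within off also 0.20, and over all libraries it was 0.21.

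**Figure D3:**
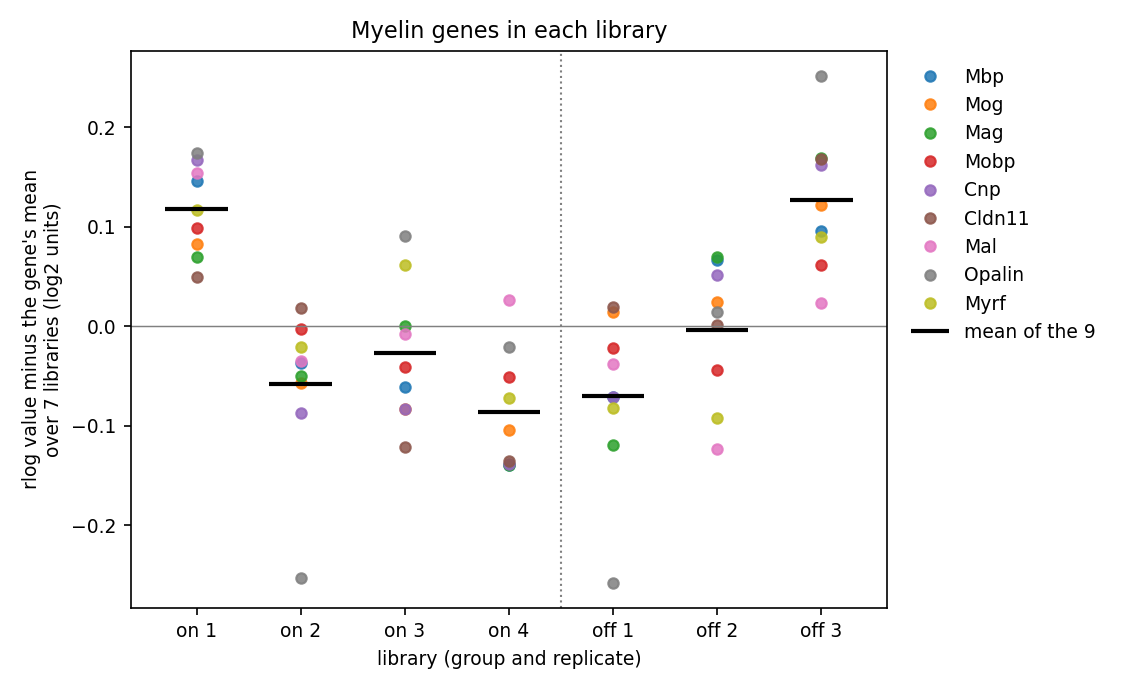
Deviation of each of the 9 genes from its own mean over the 7 libraries (y axis, log2 units) in each library (x axis), with the mean of the 9 as a black bar. All 9 points lie above 0 in on replicate 1 and in off replicate 3, where the bars stand at 0.12 and 0.13.

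Each of the 36 pairs among the 9 genes had a positive Pearson correlation over the 7 libraries, from 0.14 for Cldn11 with Mal to 0.97 for Mbp with Cnp, with a median of 0.72. Taken from the means of their own groups, all 36 were positive again, with a median of 0.76. These values are descriptions over 7 libraries, and the values of all genes in a library share its depth and tissue. The share of positive pairs among other genes was not worked out, so the count does not set these genes apart. Against the mean of the other 8, Cnp followed most closely (0.95) and Mal least (0.46). The pattern was still there after the GC and length correction. All 9 genes were above their means in on replicate 1 and in off replicate 3, with mean deviations of 0.11 and 0.10. In the other 5 libraries the mean deviations were -0.08 to -0.01. With the correction no gene passed the threshold in limma. The 9 differences then ran from -0.07 for Mbp to 0.11 for Mal, and 5 were negative. They grew in size for Mbp, Mal and Mobp (0.04) and shrank for Mog and Cldn11.

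Of 8 other genes of myelin structure and junctions, 0 passed in limma (1 at an unadjusted p under 0.05), with a median of -0.06. The most negative was Cadm4, an adhesion molecule of myelinating glia. It measured 12.80, 12.59, 12.67 and 12.63 in on against 12.76, 12.88 and 12.89 in off, where on replicate 1 lay above off replicate 1. Its difference was -0.17 ± 0.05 (SE, limma adjusted p = 0.0859). The most positive of the list was Gjc3, a connexin gene, at 0.02.

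Among 11 regulators of the oligodendrocyte lineage 2 fell and 9 did not pass in limma, where 1.79% of all genes fell, and the median was -0.12. At an unadjusted p under 0.05 there were 5 of 11, against 20.7% of all genes. Olig1, a lineage transcription factor, measured 11.86, 11.71, 11.66 and 11.67 in on and 11.92, 12.01 and 12.08 in off. All on libraries were below all off libraries, and it fell by 0.28 ± 0.05 (SE, limma adjusted p = 0.0165). Its neighbour in function Olig2 measured 9.90, 9.93, 9.76 and 9.67 against 9.999, 10.09 and 10.07 and fell by 0.24 ± 0.06 (SE, limma adjusted p = 0.0493). Olig2 missed the threshold under median centring (adjusted p = 0.0565) and quantile normalization (adjusted p = 0.0602). After the GC and length correction Olig1 stood at -0.15 and Olig2 at -0.18 and neither passed. With the correction and without on replicate 1, Olig1 passed at -0.17 (limma adjusted p = 0.00691). Olig2 did not pass in that fit, at -0.19 (limma adjusted p = 0.0527), where 9.13% of all genes were called. Without any one library, Olig1 missed the threshold in 4 of 7 fits and Olig2 in 5 of 7. St18, a zinc finger factor, had the most positive difference, 0.17 ± 0.06 (SE, limma adjusted p = 0.131). Sox10, named here for its role as the partner of MYRF, differed by -0.01 ± 0.06 (SE, limma adjusted p = 0.914).

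No gene passed in limma among 9 genes of myelin lipid synthesis (2 at an unadjusted p under 0.05) or among 29 other genes of mature oligodendrocytes (5 at an unadjusted p under 0.05). Their medians were -0.02 and -0.03. The most negative of the lipid genes was Gal3st1, the sulfotransferase that makes sulfatide, at -0.21 ± 0.06 (SE, limma adjusted p = 0.0903), and the most positive was the lipid transporter Abca2 at 0.05. Among the mature oligodendrocyte genes the range ran from -0.20 for Ppp1r14a to 0.06 for Ndrg1. Of 13 genes of precursors and newly formed oligodendrocytes 0 passed in limma (2 at an unadjusted p under 0.05), with a median of -0.01. Their extremes were C1ql1 at -0.22 and the matrix protein gene Tnr at 0.11. In the library pattern all 5 of these lists were highest in on replicate 1 or off replicate 3 and lowest in on replicate 4. Their mean deviations in those libraries were 0.04 to 0.06, 0.01 to 0.11 and -0.10 to -0.05. This pattern was not confined to these lists. Astrocyte markers were also highest in on replicate 1 (0.06) and lowest in on replicate 4 (-0.05), and microglia markers were lowest there (-0.11). The Pearson correlation with the mean of the 9 genes was 0.75 to 0.90 for these 5 lists. It was 0.77 for astrocytes and for choroid plexus, 0.67 for microglia, 0.33 for neurons, 0.08 for axonal partners and -0.52 for endothelial cells.

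Axonal partners of myelin, 10 genes of the nodal region and the neurofilaments, had a median of 0.03, with 1 gene higher and 9 not passing in limma, where 0.816% of all genes were higher. At an unadjusted p under 0.05 there were 4 of 10, against 20.7% of all genes, and 3 of 10 did not overlap between on and off, against 15.2%. Ank3, the scaffold of the axon initial segment and nodes, measured 14.34, 14.38, 14.39 and 14.37 in on against 14.15, 14.21 and 14.25 in off, and rose by 0.17 ± 0.04 (SE, limma adjusted p = 0.0377). After the GC and length correction it was 0.07 (adjusted p = 0.267). It missed the threshold in 6 of the 7 fits with 1 library left out. Nefl had the most negative difference, -0.04.

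**Figure D4:**
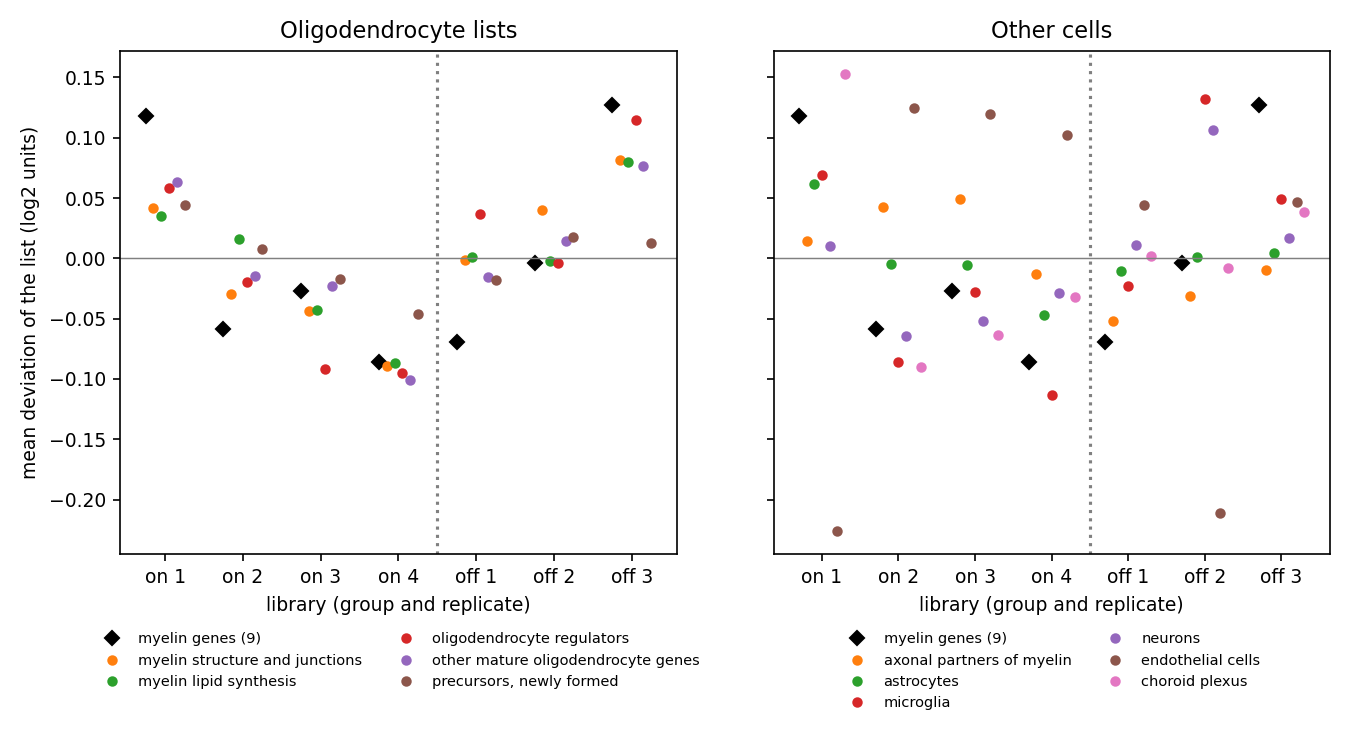
Mean deviation of each gene list from the genes' means over the 7 libraries (y axis, log2 units) by library, with the 9 myelin genes as black diamonds in both panels. The left panel has the other oligodendrocyte lists, which lie above 0 in on replicate 1 and off replicate 3, and the right panel has axonal genes and markers of other cells, where endothelial genes lie at -0.23 in on replicate 1.

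Markers of other cells also differed between libraries. In on replicate 1, where the myelin genes were high, the 5 choroid plexus genes had a mean deviation of 0.15, the 8 astrocyte genes of 0.06 and the 8 microglia genes of 0.07, while the 6 endothelial genes stood at -0.23. In off replicate 3 the same lists stood at 0.04, 0.00, 0.05 and 0.05. Summed levels, as log2 of the sum of the unlogged values, ran from 14.65 to 15.02 in on and from 14.83 to 14.88 in off for choroid plexus, and from 12.72 to 13.13 and 12.74 to 12.99 for endothelial cells. They ran from 17.12 to 17.19 and 17.04 to 17.16 for astrocytes, and from 13.58 to 13.74 and 13.66 to 13.80 for microglia. None of the markers in these 4 lists was at 0, and 0 passed the threshold in limma, with 1 astrocyte, 3 microglia and 1 endothelial gene at an unadjusted p under 0.05. Of 8 neuron genes none passed in limma either (3 at an unadjusted p under 0.05). The neuron and microglia lists each had a median of -0.09 with 7 of 8 genes negative, beside -0.05 and 6 of 9 for the myelin genes. By library the neuron genes stood at 0.01, -0.06, -0.05 and -0.03 in on and 0.01, 0.11 and 0.02 in off, and the microglia genes reached 0.13 in off replicate 2. The medians of the astrocyte, endothelial and choroid plexus lists were 0.01, 0.12 and -0.01. The 5 nuclear RNA genes had a median of 0.27. They were listed as a possible sign of RNA quality, and whether they reflect it was not tested. Their mean deviation was -0.10 in on replicate 1 and -0.14 in off replicate 3. On replicates 2 to 4 stood at 0.19 to 0.25, and off replicates 1 and 2 at -0.08 and -0.34. Of the 5 genes 2 were higher in on in limma, where 0.816% of all genes were higher. At an unadjusted p under 0.05 there were 4 of 5, against 20.7% of all genes. Malat1 rose by 0.61 (limma adjusted p = 0.0159) and Snhg14 by 0.29 (limma adjusted p = 0.0115). Each missed the threshold in 3 of the 7 fits with 1 library left out, those without on replicate 3, off replicate 2 and off replicate 3, and in 7 of all 20 alternatives. After the GC and length correction Malat1 still passed, at 0.54 (limma adjusted p = 0.0433), while Snhg14 stood at 0.17 (limma adjusted p = 0.0699). The part of these differences in the myelin values was not tested. Of the Schwann cell markers, which would show peripheral myelin, Pmp2 was listed at 0 in every library. Prx and Ncmap were low, at 4.40 to 5.54. Drp2 was not low (11.53 to 11.68). Their differences were 0.05 to 0.07, and 0 of the 3 tested passed in limma, with 0 also at an unadjusted p under 0.05.

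The genes outside the 9 whose values over the 7 libraries were most like the mean of the 9 were chosen by Pearson's r alone. Slc6a9, a glycine transporter gene, came first with r = 0.98, followed by Ooep, Myh14, Pth1r and Galnt6, a glycosyltransferase gene that is also in the list of mature oligodendrocyte genes. Arsa, the lysosomal enzyme that degrades sulfatide, followed with r = 0.97, and Rab20, Foxj1, Sulf2 and Insc completed the 10, the last with r = 0.96. These are the highest values among all other tested genes over only 7 libraries, and Ooep and Rab20 have low means, of 3.70 and 4.82 in on. The differences of the 10 genes between on and off ran from -0.05 to -0.0031, and none passed the threshold in limma. Small differences follow from choosing genes that track the mean of the 9, so they are no separate result.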

How the data were processed

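RNA of mouse brain was sequenced in 7 libraries (on, n = 4, off, n = 3), grouped by the titles in the labels. The values deposited by the authors are log2-scale regularized logarithms (rlog), by the name of the deposited table, 1 column per library. Per the submitters' processing notes the tools were DESeq2 1.16.1, Subread 1.5.3, STAR 2.5.2, cutadapt 1.9.1 and BWA 0.7.14-r1136, given without roles, and the build was GRCm38. A stranded mRNA kit was used, per the labels' protocols. The transformation shrinks low genes toward their mean, so differences of low genes are understated. The table holds no counts, so depth is unknown and counting error has no interval.

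Genes with a mean of 3 or more entered a fit in R 4.3.3 with limma 3.58.1. The fit had a group term and an intensity trend, with two-sided tests, Benjamini-Hochberg over all 17896 genes and a threshold of 0.05. It was also run on simulated data with independent noise in each library. Those data held no pattern shared by the genes of a library, so they cannot show how the fit behaves under one. Positions and exon lengths came from GENCODE M21, and promoter windows from RefSeq (GRCm38.p6). The correction for GC content and length removed smooth trends per library with mgcv 1.9.3. Named genes were the 9 members, the genes with the smallest p and the extreme differences of each list, every called gene of a list, and the 10 genes most correlated with the members. Sox10 and Pmp2 were named besides, after their values were seen; other markers are given as counts and ranges. Alternatives were other filters, scalings and limma settings, the replicate number as a block, the correction, and each library left out. The members, lists and alternatives were chosen with earlier results of these data known. Some genes are not reported here and were left out of the lists. Leaving out on replicate 1 and off replicate 3 together was chosen after seeing the data.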

Additional observations from a re-analysis of the deposited data

Results flagged for a closer look

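Among the 4 on libraries, a gap test of 62 values (named genes and list means) singled out 1 library in 7 values. With independent values about 1 in 20 would be singled out, or about 3.1. These values are not independent, since they share the same libraries and list means contain named genes. Some genes were also chosen for following the myelin genes. The 7 therefore cannot be weighed against 3.1. None of the 9 myelin genes was among the 7 values. The library was on replicate 1 in all 7: Drp2 (11.53 against 11.66 to 11.68), Trem2 (8.87 against 8.62 to 8.64), Flt1 (10.93 against 11.43 to 11.52), Snhg11 (16.14 against 16.56 to 16.59), Myh14 (11.19 against 11.04 to 11.06), the mean deviation of endothelial genes (-0.23 against 0.10 to 0.12) and that of nuclear RNA (-0.10 against 0.19 to 0.25).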

How the results depend on the processing

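Of 180 refits of the 9 genes, 160 kept direction and side of the limma threshold, 18 changed sign and 2 (Mog and Cnp, without on replicate 1) passed it. The sign changed with the GC and length correction for Mag (0.0159, 0.0484 with the replicate block, 0.0026 without on replicate 1) and with correction and block for Cnp (0.0012). For Mobp it changed with quantile normalization (-0.0401) and array weights (-0.0161). For Opalin it changed with median centring (0.0015), quantile normalization (0.0014), array weights (0.0019), the replicate block (0.0013) and both high libraries left out (0.0604). With 1 library left out, Mog ran from -0.135 to -0.0599, Cnp from -0.150 to -0.0255, Mobp from -0.0299 to 0.0342 and Opalin from -0.135 to 0.119. The count of all genes called, 466, was 8 with no filter, 237 without the intensity trend, 2215 with array weights, 30 with the replicate block, 91 after the correction, 15 with both, 1182 at a threshold of 0.1, 1634 after the correction without on replicate 1, 2261 without both high libraries, and 43 to 2917 with 1 library left out. Replicate numbers did not pair the libraries. This was judged by correlations over genes after each gene's group mean was subtracted, not by correlations of the values themselves. Same-numbered libraries had -0.23, -0.10 and 0.02, and no off library correlated best with its own number. The block leaves on replicate 4 out of the comparison. Levels per kb with the longest transcript were 14.84 for Mbp, 11.88 for Mag, 13.86 for Mobp, 12.24 for Cnp and 9.11 for Myrf. Medians of the lists stayed within 1 SD of the libraries in 259 of 266 refits and moved further in 7. The cause of these changes was not tested.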
